A study of Mus musculus with 15 samples.

Results

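The NMDA receptor subunits measured here are 6 genes, Grin1, Grin2a, Grin2b, Grin2c, Grin2d and Grin3a, taken by symbol from the 26145 genes of the deposited count tables of mouse PFC. Each of the 6 symbols matched 1 row. The cells came from 15 droplet libraries of male C57BL/6N mice: 12 of P60 mice, given as 8 to 10 weeks in the labels, and 3 of P21 mice, given as 3 weeks. The P60 mice had taken saline or cocaine by intravenous self-administration and were killed at the end of the maintenance phase, at 48 h of withdrawal or at 15 days of withdrawal, with 2 libraries for each of the 6 groups. Cocaine was taken in libraries 1 and 4 (maintenance), 6 and 8 (48 h) and 9 and 10 (15 days), and saline in libraries 2 and 3, 5 and 7, and 11 and 12. The P21 mice carry no self-administration label. A P60 library holds the pooled tissue of 2 mice. At P21 4 mice were used for 3 libraries, so that P21 libraries may share mice. A tissue tag in the labels names the nucleus accumbens, whereas the titles and the source field name the PFC.

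NMDA receptors are glutamate-gated cation channels assembled from 4 subunits. GluN1, encoded by Grin1, binds glycine or D-serine and is present in every such receptor, whereas the GluN2 subunits (Grin2a to Grin2d) bind glutamate and set opening time and magnesium block, and GluN3A (Grin3a) lowers calcium entry and is best known from juvenile brain. In the cortex of young rodents GluN2B comes first and GluN2A is added as circuits mature.

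Levels are CPM, the UMIs of a gene scaled to the UMIs of all genes other than mitochondrial and ribosomal protein genes, summed over the cells of a class in a library. A UMI counts 1 captured mRNA molecule at its 3′ end, so that the value does not grow with transcript length, but it does depend on whether the true 3′ end is annotated. The 15 libraries retained 1055 to 4439 annotated cells with a median of 3426 to 11334.5 UMIs per cell, and 2 libraries shared at most 1.09% of the barcodes of the smaller. The 15-day libraries were the largest at P60, with 2512 to 3784 cells against 1055 to 1830 in the others. The class of a cell was taken from its cluster name. The deposited class label named the same class for 99.87% of P60 cells and 95.64% of P21 cells. The classes carried their markers. Gad1, Gad2 and Slc32a1 summed to 2326 to 4802 CPM in inhibitory neurons and to no more than 10.5 CPM in excitatory neurons.

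In the GENCODE annotation of NCBIM37 (mm9), the build of the count tables, all 6 genes lie on the minus strand. Grin1 is at chr2:25146701-25174707, Grin2a at chr16:9577803-9995014 and Grin2b at chr6:135679844-136123529. Grin2c is at chr11:115110483-115128557, Grin2d at chr7:53087253-53126298 and Grin3a at chr4:49674483-49858616. The longest annotated 3′ untranslated region spans 120 bases in Grin2a, 405 in Grin2c, 900 in Grin2d, 1190 in Grin1, 2275 in Grin2b and 3618 in Grin3a. Reads from a longer, unannotated end would not have been counted, and levels of different subunits are therefore compared here only side by side, not as ratios of protein or of true transcript. Lrrc26 and E130003G02Rik, on the other strand, lie at or within 300 bases of the 3′ end of Grin1.

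RefSeq promoters (GRCm38.p6, 250 bases before to 50 after the start of the gene, read on the strand of the gene) were on hand for 3 members, Grin1, Grin2c and Grin2d, and not for Grin2a, Grin2b or Grin3a. They are shown because Grin2c and Grin2d were each far higher in 1 class than in the other neuron or glial classes, whereas Grin1 was counted in both neuron classes. Capitals mark the letters GGGCGG, the core of a GC box, searched on both strands.
Grin1 (chr2:25319138-25319437): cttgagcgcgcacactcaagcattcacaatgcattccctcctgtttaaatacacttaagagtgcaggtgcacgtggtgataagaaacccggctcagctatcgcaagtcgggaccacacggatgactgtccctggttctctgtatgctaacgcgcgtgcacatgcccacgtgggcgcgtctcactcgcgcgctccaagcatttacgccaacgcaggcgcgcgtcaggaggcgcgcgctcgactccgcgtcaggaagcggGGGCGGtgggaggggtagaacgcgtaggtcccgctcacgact
Grin2c (chr11:115267194-115267493): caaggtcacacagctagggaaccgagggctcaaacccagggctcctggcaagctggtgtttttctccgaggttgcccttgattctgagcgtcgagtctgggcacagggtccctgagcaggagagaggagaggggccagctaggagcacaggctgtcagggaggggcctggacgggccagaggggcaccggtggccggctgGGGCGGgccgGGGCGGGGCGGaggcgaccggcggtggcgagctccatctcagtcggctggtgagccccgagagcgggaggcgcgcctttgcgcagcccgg
Grin2d (chr7:45866632-45866931): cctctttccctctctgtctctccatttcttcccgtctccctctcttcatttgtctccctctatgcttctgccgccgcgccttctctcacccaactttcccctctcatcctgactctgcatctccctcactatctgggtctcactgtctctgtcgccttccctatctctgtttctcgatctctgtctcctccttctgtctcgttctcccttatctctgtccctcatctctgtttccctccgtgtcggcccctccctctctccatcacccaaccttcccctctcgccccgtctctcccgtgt
GGGCGG or its complement occurred once in the Grin1 window, 3 times in that of Grin2c (a pair of these overlap) and was not found in that of Grin2d, and 35.7% of the 32851 promoter windows held it. TGACG, a short form of the cAMP response element, or its complement CGTCA was found 2 times in the Grin1 window, both times as CGTCA, and in neither of the others, against 20.8% of all windows. The E-box CANNTG, present in 72.3% of windows, occurred 4 times for Grin1 and 1 time for Grin2d. The GC content was 60.7% for Grin1, 70% for Grin2c and 56.0% for Grin2d, against a median of 52.7% over all windows.

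Grin1, the obligatory subunit, had overlapping levels in both neuron classes at P60, with 70 to 106 CPM (median 88.7) over the 12 libraries in excitatory neurons and 53.1 to 134 CPM (median 98.7) in inhibitory neurons. Grin2b was the most counted subunit in both classes. Its level was 288 to 445 CPM (median 317) in excitatory and 223 to 304 CPM (median 265) in inhibitory neurons. Grin2a lay below it, with 24.6 to 70.4 CPM (median 28.5) in excitatory neurons and 27.5 to 121 CPM (median 60.3) in inhibitory neurons. The libraries of the classes overlapped for all 3 genes.

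Grin2c was an astrocyte transcript in these data. The 11 P60 libraries with at least 10 astrocytes held 24.98 to 46.5 CPM (median 37.8; mean 37.2 ± 7.14, SD), whereas no library passed 0.455 CPM in excitatory neurons or 2.1 CPM in inhibitory neurons. Of 1495 P60 astrocytes, 12.8% had a Grin2c UMI, or 7.89% after each cell was thinned to 2000 UMIs, against 0.276% of 1448 microglia as counted and as thinned (medians of 3512 and 3213.5 UMIs per cell). Grin2d was instead counted in inhibitory neurons, at 4.88 to 29.7 CPM (median 15.5), and no library of excitatory neurons passed 0.657 CPM. A Grin2d UMI was found in 11.3% of 1191 inhibitory neurons and 0.540% of 14443 excitatory neurons, or 2.77% and 0.104% after thinning (medians of 8038 and 13620 UMIs per cell).

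At P60 Grin3a had its highest class level outside neurons, in oligodendrocyte precursors, the dividing glia that receive glutamatergic synapses. The 11 P60 libraries with at least 10 precursors held 72.9 to 177 CPM (median 128; mean 127 ± 30.3, SD). Inhibitory neurons ranged from 6.87 to 126 CPM (median 76.8), newly formed oligodendrocytes from 13.4 to 34.9 CPM and excitatory neurons from 10.6 to 17.8 CPM. Mature oligodendrocytes were at no more than 6.13 CPM. At P21 the 1 library with enough precursors held 124 CPM in them, from 10 UMIs in 28 cells, and inhibitory neurons held 190 to 226 CPM. The order of these 2 classes was thus not the same, but the make-up of the inhibitory class also differed between the ages, as described below. A Grin3a UMI was present in 33.0% of 767 precursors, 10.4% of newly formed and 0.887% of mature oligodendrocytes, and thinning left 20.2%, 4.46% and 0.570%. In microglia the share was 0.691%, or 0.276% thinned.

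**Figure D1:**
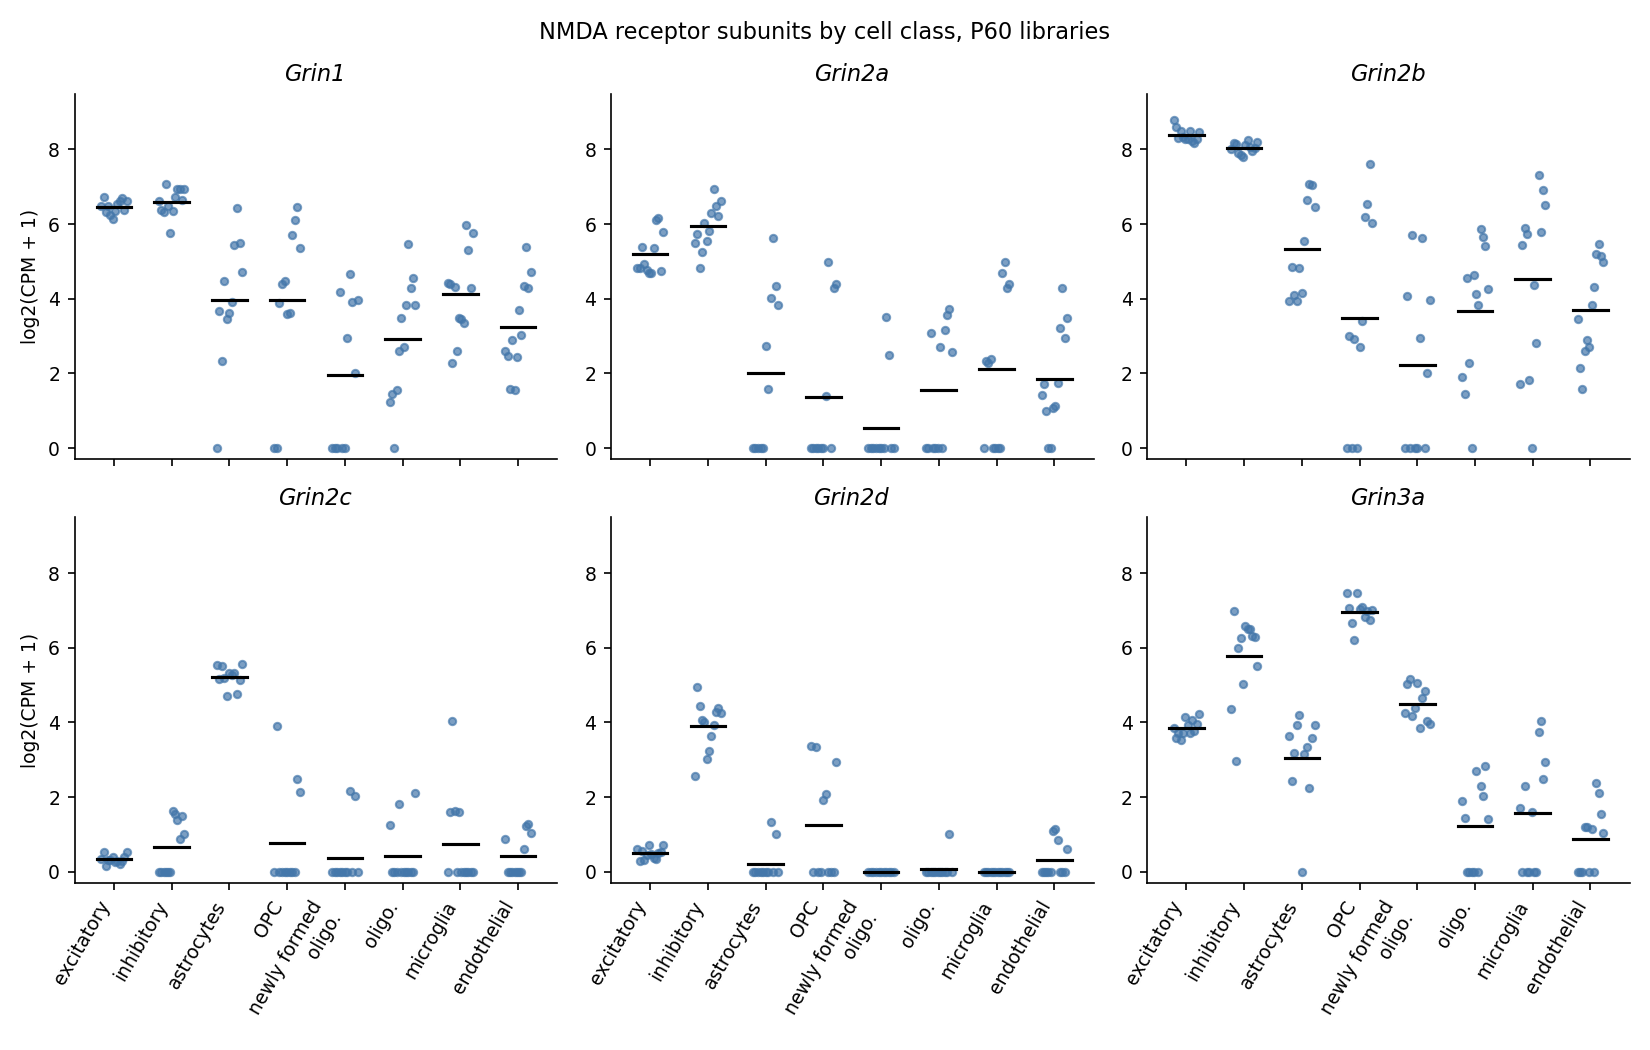
Level of each NMDA receptor subunit, as log2(CPM + 1), in 8 cell classes of the P60 libraries. Points are libraries with at least 10 cells of the class and bars are means of the plotted values. Grin2c stands high in astrocytes, Grin2d in inhibitory neurons, and Grin3a in oligodendrocyte precursors and inhibitory neurons.

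Grin1, Grin2a and Grin2b were also counted in glia and endothelial cells, and excitatory transcripts were counted in the same cells. Grin2b varied widely between P60 libraries, with up to 135 CPM in astrocytes (median 27.6), 158 in microglia (median 47.4) and 194 in precursors (median 6.97). Mature oligodendrocytes, newly formed oligodendrocytes and endothelial cells had at most 57.1, 51.0 and 43.3 CPM. For every 100 UMIs of Slc17a7, the vesicular glutamate transporter, Grin2b had 78.0 UMIs in excitatory neurons, 90.6 in astrocytes, 80.3 in microglia, 64.1 in precursors, 62.3 in mature oligodendrocytes, 62.0 in endothelial cells and 43.6 in newly formed oligodendrocytes. Grin2a had 10.8 in excitatory neurons and 7.27 to 16.2 in the 6 other classes with little Slc17a7. For Grin1 the value was 21.8 in excitatory neurons and 30.9 to 46.2 in these classes. The part of RNA from excitatory neurons in these glial counts was not tested. On the same measure Grin2c had 48.3 UMIs in astrocytes and 0.0613 in excitatory neurons, and Grin3a had 223 in precursors and 3.43 in excitatory neurons. Slc17a7 does not follow RNA from inhibitory neurons, which also hold Grin3a, and its part was not tested.

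Among the 26 excitatory clusters that the authors defined (Exc_1 to Exc_26), Grin2b ranged from 554 ± 75.6 CPM (SD, n = 12 libraries) in Exc_4 to 214 ± 24.9 (n = 9) in Exc_22, and Grin1 from 155 ± 25.7 (n = 7) in Exc_18 to 57.6 ± 9.65 (n = 9) in Exc_7. Grin2a ranged from 58.9 ± 32.3 (n = 12) in Exc_21 to 30.03 ± 16.7 (n = 9) in Exc_22. With 26 clusters in order, neighbours did not differ beyond their spread for any of Grin1, Grin2a, Grin2b and Grin3a, as small steps are likely among so many, whereas the ends for Grin1 and Grin2b lay apart by more than their SDs. Grin3a was at 28.7 ± 7.60 CPM (n = 12) in Exc_16, 28.3 ± 8.25 (n = 12) in Exc_14 and 26.9 ± 9.44 (n = 12) in Exc_21, whereas Exc_1 held 0.650 ± 1.21 (n = 11) and the 7 libraries of Exc_18 held no UMI.

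Of the 5 inhibitory clusters with at least 3 usable P60 libraries, Inhib_2 held Grin3a at 453 ± 46.3 CPM (SD, n = 6), Inhib_5 at 108 ± 36.9 (n = 3), and Inhib_9, Inhib_3 and Inhib_7 at 25.2 ± 28.3 (n = 6), 14.2 ± 14.6 (n = 4) and 9.30 ± 8.53 (n = 9). The last 3 did not differ beyond their spread. Grin2a ran the other way, with 142 ± 43.9 CPM (n = 9) in Inhib_7 and 40.3 ± 13.6 (n = 6) in Inhib_2. Grin1 ranged from 147 CPM in Inhib_2 to 81.9 CPM in Inhib_9, with each of the 4 steps between neighbours under the larger SD. Grin2b stayed within 244 to 294 CPM in all 5, and Grin2d was at 18.7 ± 10.8 (n = 9) in Inhib_7 and 7.32 ± 2.81 (n = 4) in Inhib_3. The low and high ends of these orders were chosen by level, and no test was made between clusters.

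Over the 38 neuronal clusters with at least 30 P60 cells, the genes whose log2(CPM + 1) followed Grin2a most closely were Cacna1a, the pore subunit of the P/Q-type calcium channel (Pearson r = 0.91), Syt7, a synaptotagmin (r = 0.83), and Rnft1 (r = 0.82). For Grin2b they were Sowaha (r = 0.84), Cx3cl1, the ligand of the microglial fractalkine receptor (r = 0.84), and Cyld, a deubiquitinase (r = 0.83). For Grin1 they were Eif2c3 (r = 0.77), Sfpq (r = 0.76) and Dennd5a (r = 0.76), and for Grin3a Galnt7 (r = 0.72), Vat1l (r = 0.72) and L1cam (r = 0.68). The clusters share their libraries and differ in depth, and these values describe likeness only. Grin2c and Grin2d were under 10 CPM on average and were not compared.

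The comparison of P60 with P21 asks how the subunits changed between early adolescence and adulthood, and used the 6 saline P60 libraries. No library holds both ages, so age and library batch cannot be told apart. The saline P60 mice had also been through food restriction, lever training, catheter surgery and saline self-administration. No such procedure is given for the P21 mice, so age and procedure cannot be told apart either. In excitatory neurons Grin3a was lower at P60, and neither Grin2a nor Grin2b passed the test. A gene counted as called when edgeR's quasi-likelihood test gave an adjusted p (Benjamini-Hochberg, over all genes tested) under 0.05 and a change of more than 1.5-fold. By this rule 19.3% of the 13245 genes tested in excitatory neurons were called, and of the members Grin3a and, with limits given after its values, Grin2d.

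Grin3a stood at 25.8, 30.1 and 32.3 CPM in excitatory neurons of the 3 P21 libraries and at 10.96 to 17.8 CPM (median 13.2) in those of the 6 saline P60 libraries. All P21 libraries lay above all P60 libraries. The log2 change was -1.02 (SE 0.13, adjusted p = 8.92e-05), and the call was kept when any library was left out. Other measures of the same cells moved with age: the median UMIs per cell were 7345 to 11457 at P21 and 11898 to 14834 in the saline P60 libraries, and mitochondrial UMIs were 3.38% to 3.85% and 2.33% to 2.76%. The 4 oligodendrocyte markers summed to 97.3 to 356 CPM at P21 and 9.06 to 45.7 CPM at P60, and the 3 endothelial markers to 18.0 to 54.0 and 2.01 to 8.55 CPM. The 2 oligodendrocyte precursor markers summed to 2.03 to 3.72 CPM at P21 and 0.224 to 1.54 CPM at P60, and the 2 markers of newly formed oligodendrocytes to 3.41 to 5.84 and 0.242 to 0.985 CPM. None of these markers was at 0 over the libraries of either age. Their part in the excitatory results was not tested. Grin2d was at 0.929, 0.779 and 1.015 CPM at P21, from 25, 10 and 14 UMIs, and at 0.224 to 0.657 CPM (median 0.412) at P60. The log2 change was -0.93 (SE 0.30, adjusted p = 0.0273). Grin2d was not tested in the fits of P60 libraries alone, so it passed the filter on low counts through the P21 libraries, where it was higher, and its call is no support for a change with age. The call was lost with no filter (adjusted p = 0.0581), with P21 libraries 2 and 3 summed (0.0547), without P21 library 1 (adjusted p = 0.0779), P21 library 3 (0.0951) or library 11 (0.0591), and with DESeq2 (0.0973). The markers Gad1, Gad2 and Slc32a1 in excitatory neurons moved with Grin2d, from 8.85 to 10.5 CPM in sum at P21 to 0.362 to 4.46 CPM in the saline libraries, with none of the 3 at 0, and their part in the result was not tested.

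The other members did not pass. Grin1 was at 98.5, 103 and 132 CPM at P21 and 75.5 to 106 CPM (median 81.1) at P60, with a log2 change of -0.30 (SE 0.12, adjusted p = 0.0535). Grin2a was at 43.0, 52.3 and 60.5 CPM at P21 and at 24.8 to 54.4 CPM (median 26.8) at P60, with a log2 change of -0.58 (SE 0.26, adjusted p = 0.107). Library 12, a saline library of 15 days, was the highest of the P60 set and the only one within the P21 range. Without it the Grin2a change was -0.78 and was called (adjusted p = 0.00551). DESeq2 with all libraries gave -0.58, just under the 1.5-fold limit. Grin2b was at 240, 288 and 412 CPM at P21 and at 309 to 388 CPM (median 317) at P60, a log2 difference of 0.15 (SE 0.14, adjusted p = 0.427). Grin2c did not pass the filter on low counts.

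**Figure D2:**
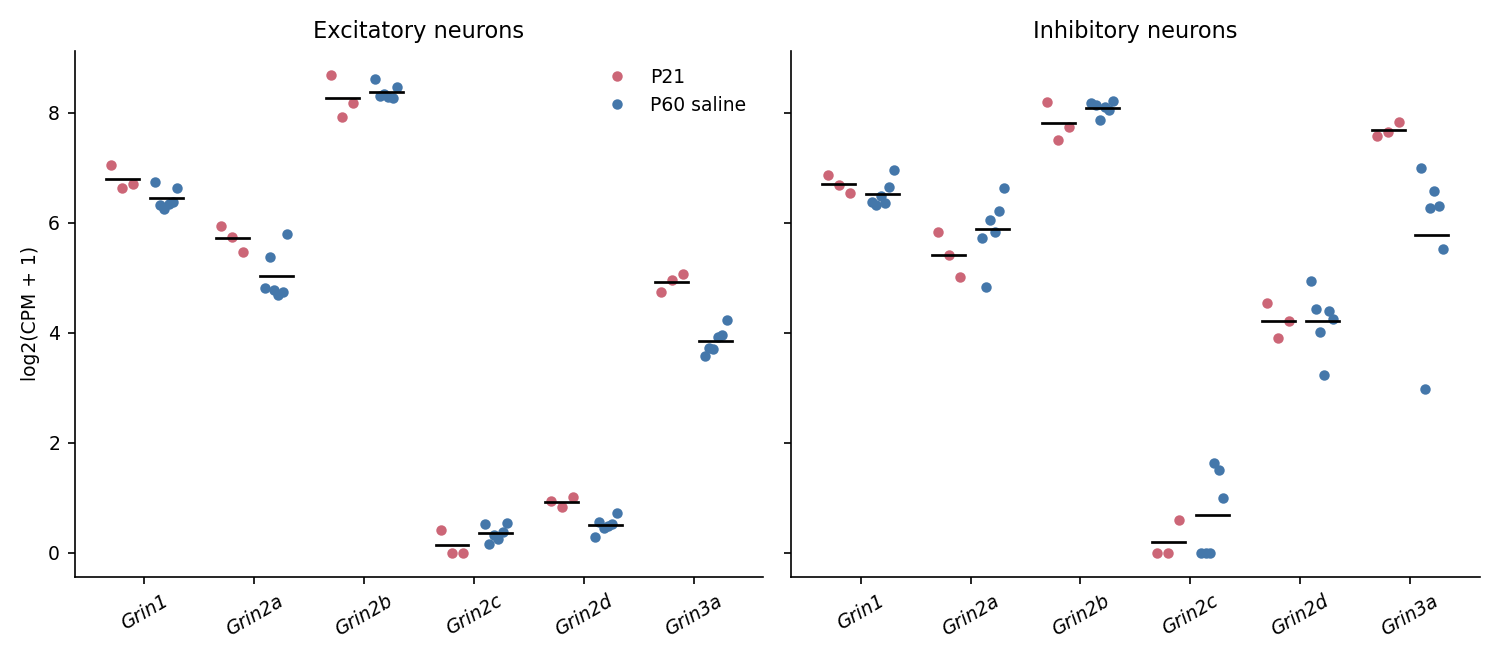
Level of each subunit, as log2(CPM + 1), per library in excitatory (left) and inhibitory neurons (right) of the 3 P21 and the 6 saline P60 libraries, with bars at the mean of the plotted values. Grin3a is lower in all P60 libraries than in any P21 library in both classes, whereas the points for Grin2b overlap.

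Grin3a was also compared within single clusters, which share the same libraries and do not count as independent. In the 29 neuronal clusters with enough cells, 10.6% of all 180149 tests of genes in clusters were called. Grin3a was tested in 17 clusters and called lower in 12, all excitatory. A gene that is low at P60 can pass the filter through the P21 libraries, so the count of 12 in 17 depends in part on the filter. With no filter Grin3a was tested in 29 clusters and called lower in 18, with a median log2 change of -1.21. The share of all gene tests called without the filter is not given here, and this count is no added support. DESeq2 called 9 of the 17. In Exc_4 it was -1.48 (SE 0.25, adjusted p = 0.000247), in Exc_15 -1.41 (SE 0.26, adjusted p = 0.00164) and in Exc_3 -1.52 (SE 0.31, adjusted p = 0.00214). Of the 3 excitatory clusters with most Grin3a at P60, Exc_16 was called lower (-0.84, adjusted p = 0.0106), and Exc_14 (-0.32, adjusted p = 0.36) and Exc_21 (-0.41, adjusted p = 0.245) were not. A choice by a high P60 level favours a small fall. Grin1 was called lower in 5 of 29 clusters (Exc_1, Exc_14, Exc_17, Exc_22 and Exc_24), most in Exc_22 with -0.95 (SE 0.20, adjusted p = 0.0011). Without P21 library 1, 1 of 28 was called.

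Grin2a had a negative estimate in 26 of 27 clusters and was called lower in 2, Exc_13 with -1.08 (SE 0.27, adjusted p = 0.00884) and Exc_18 with -1.02 (SE 0.29, adjusted p = 0.0331). The count rested on the 15-day saline libraries: 14 clusters were called without library 12 and 0 without library 11. In the latter fit 9 had an unadjusted p below 0.05. It was also 0 without P21 library 1, with 5 at that level. DESeq2 called 1 with all libraries. With no filter on low counts 11 of 29 were called lower, again without the share of all gene tests called, so this count is no added support. With all 12 P60 libraries in place of the 6 saline ones, 0 of 26 were called by edgeR and 0 had an unadjusted p below 0.05, and the median log2 change was -0.32, against -0.61 over the 27 clusters. Grin2b was called in 0 of 29 clusters by edgeR, and 0 had an unadjusted p below 0.05, with estimates from -0.12 to 0.59. DESeq2 also called 0. Without P21 library 1, the library with the highest Grin2b at P21, 1 of 28 was called higher and 18 had an unadjusted p below 0.05. Grin2c and Grin2d passed the filter in none.

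**Figure D3:**
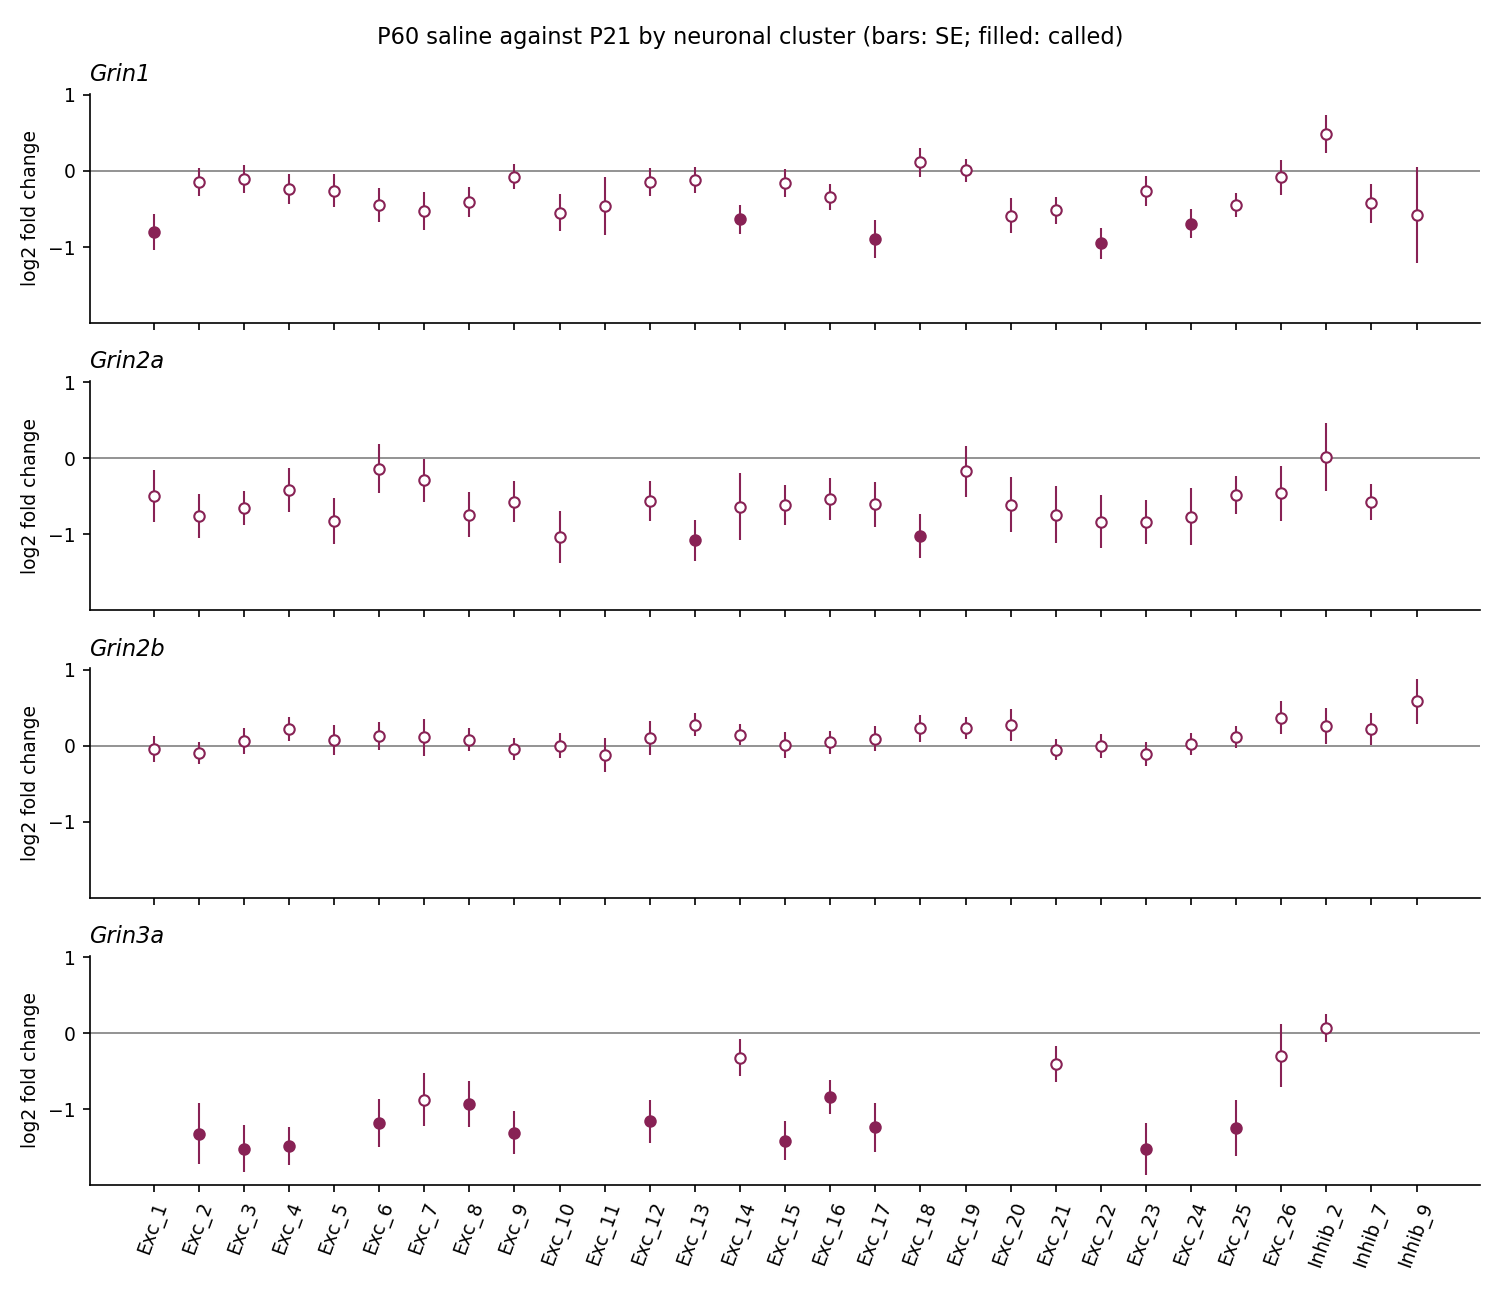
Log2 change between P21 and saline P60 libraries in each neuronal cluster for Grin1, Grin2a, Grin2b and Grin3a, with bars for the SE and filled points for called changes. Estimates for Grin3a lie near -1 in most excitatory clusters that passed the filter and at 0.07 in Inhib_2. Those for Grin2b lie around 0.

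In inhibitory neurons 1 of 5 members tested was called, where 14.0% of 8898 genes were. Grin3a was at 190, 201 and 226 CPM in the P21 libraries and at 6.87 to 126 CPM (median 76.8) in the saline P60 libraries, without overlap. The log2 change was -1.58 (SE 0.37, adjusted p = 0.021). It was lost without P21 library 2 (adjusted p = 0.0624) or P21 library 3 (0.0816), and with these 2 libraries summed as 1 (0.0662). The make-up of the class differed between the ages: Inhib_1 and Inhib_2, the clusters with most Grin3a, made up 44.5% to 47.2% of the inhibitory cells of a P21 library and 0% to 19.3% of those of a saline P60 library. The cluster names of P21 cells were assigned by the authors through correlation to the P60 clusters. Mitochondrial UMIs in inhibitory neurons were 3.88% to 4.47% at P21 and 2.78% to 3.64% in the saline P60 libraries, and the 4 microglial markers summed to 46.4 to 66.5 and 0 to 33.0 CPM, with none of the 4 at 0 over the libraries of either age. In the same cells Snap25, Slc17a7, Neurod6 and Camk2a summed to 2564 to 2655 CPM at P21 and 2754 to 3298 CPM in the saline P60 libraries. Gad1, Gad2 and Slc32a1 summed to 2326 to 2739.5 and 2972 to 4113 CPM. None of these ranges overlapped between the ages, and their part in the inhibitory results was not tested. Inhib_1 and Inhib_2 held 81.1% (Inhib_2) and 11.8% (Inhib_1) of the inhibitory Grin3a UMIs at P21. Within Inhib_2 the level was 434 ± 37.9 CPM (SD, n = 3) at P21 and the fitted log2 change was 0.07 (SE 0.18, adjusted p = 0.921). The P60 side had 3 usable saline libraries. Inhib_2 numbered 44 cells over all saline P60 libraries, against 341 at P21. With both clusters left out, an alternative chosen after the data were seen, the class change in Grin3a was -0.49 (SE 0.41, adjusted p = 0.46). Without Inhib_7 it was -1.05 (adjusted p = 0.123).

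**Figure D4:**
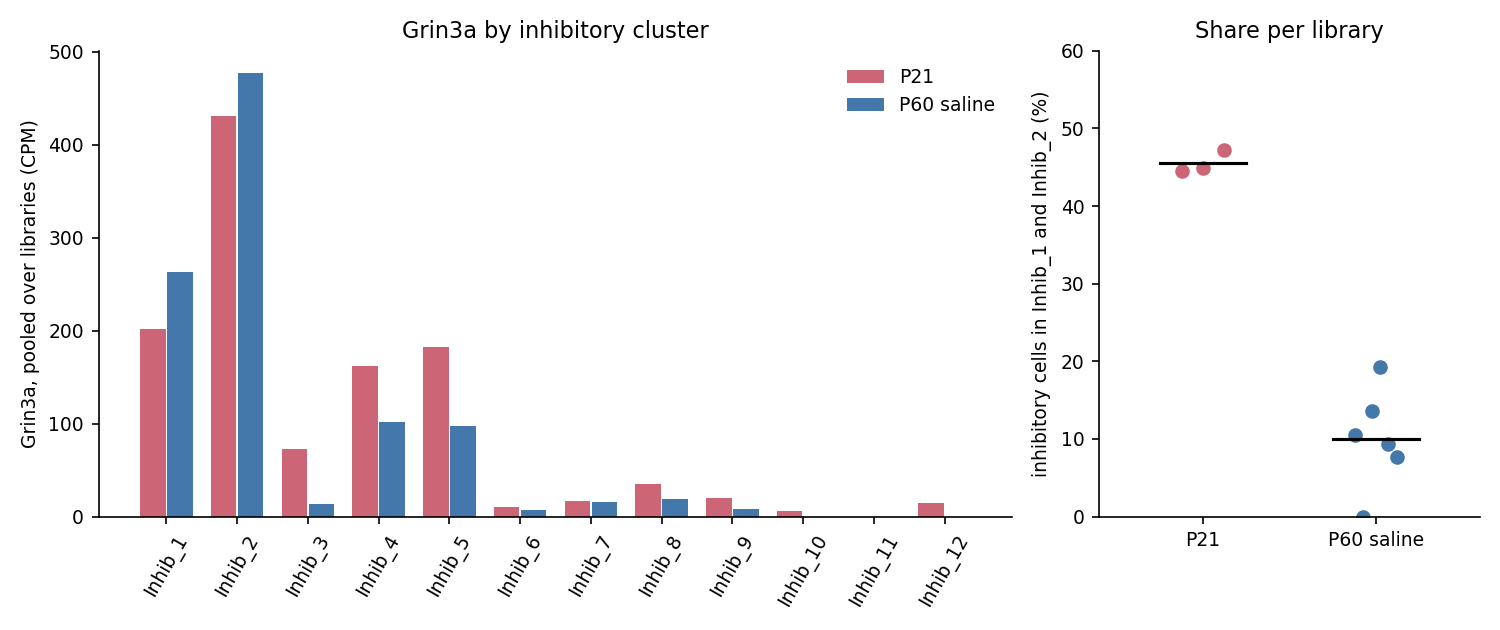
Left, Grin3a in each inhibitory cluster as CPM of the UMIs pooled over the 3 P21 or the 6 saline P60 libraries. Right, percent of the inhibitory cells of each library in Inhib_1 and Inhib_2, with bars at the mean. Inhib_2 is at 431 CPM at P21 and 477 CPM at P60, and the share of these clusters is lower in every P60 library.

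The other members were not called in inhibitory neurons. Grin2a was at 31.2, 41.3 and 55.8 CPM at P21 and at 27.5 to 97.9 CPM (median 60.3) at P60, with a log2 difference of 0.62 (SE 0.25, adjusted p = 0.0904). It was called without P21 library 1 (0.90, adjusted p = 0.0135) or library 3 (0.73, adjusted p = 0.0233). The differences were 0.24 for Grin2b (SE 0.14, adjusted p = 0.257), -0.14 for Grin1 (SE 0.15, adjusted p = 0.572) and -0.12 for Grin2d (SE 0.28, adjusted p = 0.807).

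The age effect on Grin2a differed between the classes as a whole, and this call was lost without Inhib_7. In a fit of both classes with the library as a block, the change in inhibitory neurons exceeded that in excitatory neurons by 1.26 on the log2 scale (SE 0.24, adjusted p = 0.00253), and the call was kept when any library was left out. The same fit called 7.21% of 12196 genes, and none of the 4 other members tested. Inhib_7, the cluster with most Grin2a, made up 4.31% to 13.8% of the inhibitory cells of a P21 library and 15.8% to 40.4% of those of a saline P60 library, and held 30.4% and 71.8% of the inhibitory Grin2a UMIs. Without it, an alternative chosen after the data were seen, the difference was 0.56 (SE 0.22, adjusted p = 0.102), and the age difference of Grin2a in inhibitory neurons was -0.0012 (SE 0.32, adjusted p = 0.999). Without Inhib_1 and Inhib_2 the difference between classes was 1.19 (SE 0.34, adjusted p = 0.0773). In single inhibitory clusters Grin2a did not rise by any test: the log2 change was -0.58 in Inhib_7 (SE 0.23, adjusted p = 0.184) and 0.02 in Inhib_2 (SE 0.45, adjusted p = 0.999).

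The balance of Grin2a and Grin2b was taken as the Grin2a share, 100 times Grin2a over the sum of both. In excitatory neurons it was 12.8%, 12.98% and 17.9% in the P21 libraries and 6.53% to 13.3% in the saline P60 libraries. Only library 12 reached into the P21 range. The means were 14.6% ± 2.90 (SD, n = 3) and 9.002% ± 2.73 (SD, n = 6), a difference of -5.56 percentage points (exact permutation test, two-sided, p = 0.0714, where the smallest possible is 0.0238). Without library 12 the difference was -6.43 and the exact p was 0.0357, the smallest possible for 5 against 3 libraries. As library 12 alone reached into the P21 range, leaving it out had to give this p, which is no added support. With equal weight for 14 clusters the exact permutation p was 0.0238 for -6.06. In inhibitory neurons the share was 15.9% ± 2.95 (SD, n = 3) at P21 and 18.3% ± 5.82 (SD, n = 6) at P60 (exact permutation p = 0.571).

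The share could be tested in 28 clusters, 26 of them excitatory, and its mean was lower at P60 in all 28, with a median difference of -5.32 points. Of these, 5 had an exact p below 0.05 before adjustment and 0 after Benjamini-Hochberg adjustment over the clusters, where the smallest exact p was adjusted to 0.168. The clusters share the same libraries and do not count as independent. The largest fall, -18.6 points, was in Inhib_7, from 49.3% ± 14.9 (SD, n = 3) to 30.8% ± 4.19 (SD, n = 4; exact p = 0.114, smallest possible 0.0571). Because the 3′ end of Grin2a is annotated so briefly, the share is no absolute ratio, and whether the uncounted part of Grin2a was the same at both ages was not tested.

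Among all UMIs of the 6 members in excitatory neurons, Grin2b made up 61.3% ± 4.17 at P21 and 71.3% ± 2.23 in saline P60 libraries (SD, n = 3 and 6). Grin3a made up 6.05% ± 1.70 and 2.94% ± 0.521, and Grin1 22.1% ± 1.22 and 18.5% ± 0.923. In inhibitory neurons Grin3a made up 34.8% ± 5.79 and 13.3% ± 7.37.

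Astrocytic Grin2c did not differ by the test. It was at 9.69, 42.1 and 52.4 CPM in the P21 libraries, from 1, 30 and 6 UMIs, and at 34.2 to 46.5 CPM in the 5 saline P60 libraries with at least 10 astrocytes. The log2 difference was -0.03 (SE 0.37, adjusted p = 0.996) where 1.11% of 5791 genes were called. edgeR called 0 of 3 members tested, 0 had an unadjusted p below 0.05, and DESeq2 called 0 with 1 (Grin2b) at that level. Grin2b was at 1.45 (SE 0.79, adjusted p = 0.477), and the excitatory markers summed to 126 to 307 CPM in P21 astrocytes and 94.5 to 1709 CPM in those of saline P60 libraries.

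Genes that anchor, signal from or feed the receptor were followed as a list of 41: postsynaptic scaffolds, calcium signalling, kinases and phosphatases, co-agonist supply, and transport. In excitatory neurons 38 were tested and 1 was called, Ephb2, a receptor tyrosine kinase that binds NMDA receptors, with a log2 change of -0.74 (SE 0.15, adjusted p = 0.00226). This is 1 of 38 where 19.3% of all genes were called, and the median log2 change was 0.13 over the list and -0.0048 over all genes. An unadjusted edgeR p below 0.05 was found for 21 of the 38 and for 6562 of all 13245 genes. The low count of calls therefore does not mean that the listed genes stayed level. In inhibitory neurons 7 of 33 were called, 6 higher and 1 lower at P60, where 14.0% of all genes were. The median log2 change was 0.11 over the list and 0.0021 over all genes. Here 15 of the 33 and 2936 of all 8898 genes had an unadjusted edgeR p below 0.05. Those with the largest rise were Phgdh, which opens the pathway from glucose to serine (2.34, SE 0.45, adjusted p = 0.00358), Ptk2b, a calcium-dependent kinase (1.83, SE 0.29, adjusted p = 0.000372), Psat1 (1.75, SE 0.26, adjusted p = 0.000255) and Psph (0.99, SE 0.31, adjusted p = 0.0449), the next enzymes of serine synthesis. Nos1, neuronal nitric oxide synthase, fell by 1.19 on the log2 scale (SE 0.29, adjusted p = 0.0174).

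Serine synthesis is best known from astrocytes. The markers Gja1, Aqp4, Aldoc and Slc1a3 summed to 73.0 to 126 CPM in inhibitory neurons of P21 libraries and to 110 to 456 CPM in those of saline P60 libraries, with none of the 4 at 0, and their part in the result was not tested. Without Inhib_1 and Inhib_2, Phgdh, Psat1 and Ptk2b were called higher (log2 changes of 1.81, 1.37 and 1.66). Psph lost its call in that edgeR fit (0.88, adjusted p = 0.0738). Nos1 turned direction and was not called (0.60, SE 0.36, adjusted p = 0.291), so its fall was not seen outside these clusters. In astrocytes edgeR called 0 of the 22 listed genes tested, and 0 had an unadjusted p below 0.05.

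The comparison of cocaine with saline asks whether self-administration and withdrawal altered the subunits. At the level of the classes no member was called. In excitatory neurons the share of all genes called was 0.0% at maintenance, 0.0% at 48 h, 0.706% at 15 days and 0.0% over all time points together, of 13171 genes tested. The corresponding shares in inhibitory neurons were 0.0%, 0.0115%, 0.84% and 0.0% of 8687. At 15 days 93 genes were called higher with cocaine and 0 lower in excitatory neurons, and 54 and 19 in inhibitory neurons. edgeR called 0 of 4 members in excitatory and 0 of 5 in inhibitory neurons at each time point. The only unadjusted p below 0.05 was that of Grin2a at 15 days in excitatory neurons, and DESeq2 gave the same counts. The differences between time points called 0.0% of genes in excitatory neurons, and 0 of 12 member tests, with none at an unadjusted p below 0.05 by either tool.

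Grin2a at 15 days was the value that stood out. Its level in excitatory neurons was 67.6 CPM in library 9 and 70.4 CPM in library 10, both cocaine, against 25.7 CPM in library 11 and 54.4 CPM in library 12, both saline. The cocaine libraries were the highest of all 12, and the saline pair lay far apart. The log2 difference was 0.84 (SE 0.35, edgeR adjusted p = 0.651). With no filter on low counts the estimate was almost the same, 0.85, but the edgeR adjusted p was 8.38e-08 and Grin2a was called. The p-value thus depended on which genes entered the fit. The share of all genes called without the filter is not given here, and this call is no added support. Without library 12 the log2 difference was 1.47, and without library 11 it was 0.38. The saline libraries of the other time points lay between 24.8 and 40.7 CPM and the cocaine libraries between 24.6 and 40.1 CPM. At these times the log2 differences were -0.31 (SE 0.40, maintenance) and 0.34 (SE 0.38, 48 h), with adjusted p of 0.913 and 0.989. Both turned direction when 1 library was left out, to 0.10 at maintenance without library 3 and to -0.063 at 48 h without library 8.

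Within clusters the same pattern was seen, and some clusters passed the test. The share of all gene tests called over neuronal clusters was 0.00647% at maintenance, 0.00554% at 48 h and 1.22% at 15 days. Of the 2423 calls at 15 days, 2366 were higher with cocaine and 57 were lower, so a call in this direction was not particular to Grin2a. At 15 days Grin2a was called higher with cocaine in 9 of 28 clusters: Exc_6, Exc_8, Exc_11, Exc_12, Exc_13, Exc_16, Exc_18, Exc_23 and Exc_25. In Exc_13, with the largest difference, the cocaine libraries held 70.1 and 71.7 CPM (34 and 97 UMIs) and the saline libraries 18.8 and 28.1 CPM (21 and 7 UMIs), a log2 difference of 1.80 (SE 0.32, adjusted p = 0.000421). In Exc_12 the values were 76.6 and 81.7 CPM against 24.97 and 59.9 CPM, with a difference of 1.05 (SE 0.26, adjusted p = 0.0162).

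The calls depended on the library and the tool. With library 11 left out 0 of 28 clusters were called and 3 had an unadjusted p below 0.05, and with library 12 left out 20 of 27 were called. DESeq2 called 0 of 28, with 8 at an unadjusted p below 0.05. Leaving out library 9 or library 10 left 3 or 0 calls of 27, with 19 and 17 at that level. Over the 26 excitatory clusters with at least 10 cells in all 4 libraries, library 11 was the lowest in 25, and both cocaine libraries exceeded both saline libraries in 21. These clusters share the same 4 libraries and do not count as independent. How many other genes had this order was not counted. The median ratio over the clusters was 1.92 between libraries 12 and 11, and 0.933 between libraries 9 and 10. The spread between the saline libraries was thus of the order of the group difference, whose median over the 28 clusters was 0.90 on the log2 scale.

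**Figure D5:**
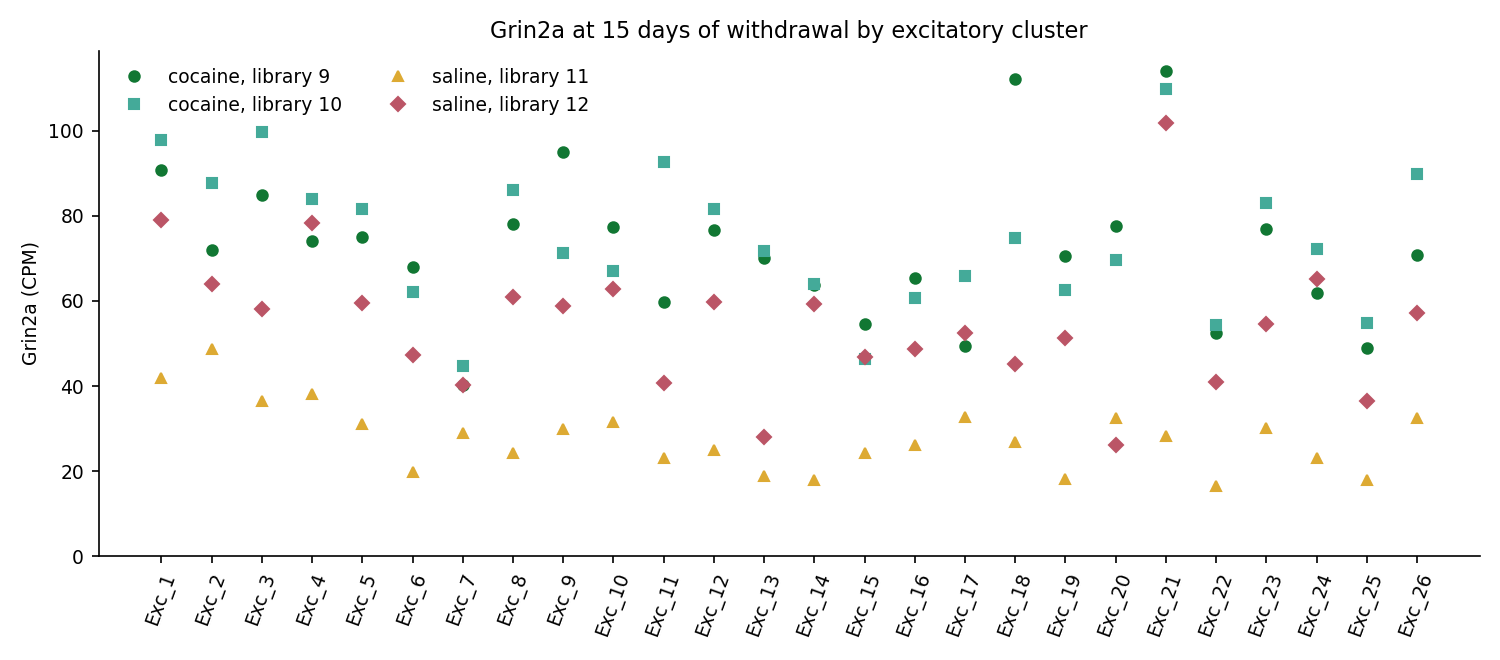
Grin2a in CPM in each excitatory cluster in the 4 libraries of 15 days of withdrawal. Library 11 (saline) is lowest in 25 of the 26 clusters, and both cocaine libraries lie above both saline libraries in 21. The clusters share these libraries and do not count as independent.

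For the cocaine effect between time points over clusters, 0.0141% of all tests were called and 1 of 147 member tests, Grin2a in Exc_12 between 15 days and maintenance (2.38, adjusted p = 0.0134). This call was lost with DESeq2 (adjusted p = 0.999) and without library 1 (0.0535), 3 (0.648), 4 (0.121) or 11 (0.34). At maintenance and 48 h edgeR called 0 member tests over clusters (of 52 and 72), where 5 and 4 had an unadjusted p below 0.05, and DESeq2 called 0 with 4 and 3. The Grin2a share in excitatory neurons differed by -2.31 points at maintenance, 1.21 at 48 h and 8.55 at 15 days between cocaine and saline, a mean of 2.48 (exact permutation within time points over 216 regroupings, two-sided, p = 0.25). At 15 days it was 18.5% and 19.6% with cocaine and 7.69% and 13.3% with saline. In inhibitory neurons the mean difference was 2.23 points (exact permutation p = 0.259). With 2 libraries against 2 at a time point, an exact test cannot go below 0.333.

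Grin3a was not called for cocaine in excitatory neurons, where 12 libraries lay between 10.6 and 17.8 CPM and the log2 differences were 0.00 at maintenance (SE 0.22), 0.09 at 48 h (SE 0.19) and -0.15 at 15 days (SE 0.17). Grin2b differed by 0.18 (SE 0.12), 0.06 (SE 0.12) and -0.13 (SE 0.11), and Grin1 by -0.06 (SE 0.14), 0.04 (SE 0.14) and 0.21 (SE 0.13). Grin2d in inhibitory neurons was at 8.40 to 29.7 CPM in saline and 4.88 to 18.4 CPM in cocaine libraries, a log2 difference over all time points of -0.41 (SE 0.33). Of the 41 listed pathway genes, 38 were tested for cocaine in excitatory and 33 in inhibitory neurons. By edgeR 0 of these were called at any time point, where between 0 and 3 of those tested had an unadjusted p below 0.05.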

How the data were processed

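Single cells of mouse PFC were captured with the 10X Chromium platform. The authors aligned reads to mm9 with Cell Ranger and deposited raw UMI counts per library, without normalization, with a table of retained cells that gives class and cluster from Seurat 2.1.0 (version per the labels). The deposited fraction of mitochondrial UMIs per cell and the joined expression table were not used. The authors removed likely double droplets by a limit on detected genes and by inspection after clustering, and no doublet caller was run here. Whether counting used strand is not given in the sources used here.

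Counts were summed per library and class or cluster in python 3.11.15 (pandas 2.3.3, numpy 2.4.6, scipy 1.17.1). Libraries with under 10 cells of a type were left out, as were mitochondrial and ribosomal protein genes, which left 25989 genes. edgeR 4.0.16 (R 4.3.3) was run with its low-count filter, TMM scaling and robust quasi-likelihood tests, and DESeq2 1.42.0 was an alternative. P21 was compared with 6 saline libraries, and cocaine with saline in 1 fit of 12 libraries with a mean per group. Libraries are pools of mice, and p-values measure the spread between libraries. The class tests were also run on simulated counts with the same spread for every gene, and the outcome is not given here. Single clusters were not simulated, so this lends no support to calls in clusters. For thinned shares each cell was reduced to 2000 UMIs, and no P60 neuron was left out. Named genes were the 6 members, the called pathway genes (at most 4 in each direction) and the 3 genes most like each member. The members and gene lists were chosen with earlier results of these data known.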

Additional observations from a re-analysis of the deposited data

Results flagged for a closer look

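The age effect on Grin2a was 1.26 higher on the log2 scale in inhibitory than in excitatory neurons, by the test of the difference itself (edgeR adjusted p = 0.00253). Inhib_7, the cluster with most Grin2a, held 7.90% of the inhibitory cells at P21 and 35.7% in saline P60 libraries. Without it the value was 0.56 (adjusted p = 0.102), and without Inhib_1 and Inhib_2 it was 1.19 (adjusted p = 0.0773), so the call was lost in both cases.

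In Exc_12 the difference between cocaine and saline in Grin2a was 2.38 larger at 15 days than at maintenance on the log2 scale (SE 0.47, edgeR adjusted p = 0.0134). It was the only call among 147 such tests of members in neuronal clusters, where 0.0141% of all tests were called. DESeq2 gave 2.29 without a call (adjusted p = 0.999). The edgeR call was also lost without library 11 (1.74, adjusted p = 0.34), library 3 (1.98, adjusted p = 0.648), library 1 (2.36, adjusted p = 0.0535) or library 4 (2.41, adjusted p = 0.121).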

How the results depend on the processing

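No paired analysis was possible because the numbers of the P21 and P60 libraries are separate numberings, and within P60 no number occurs in more than 1 group. Of 1194 alternative values for 68 results, 13 changed direction. In excitatory neurons 2 members, Grin3a and Grin2d, were called for age. The count was 1 with DESeq2, with P21 libraries 2 and 3 summed and with no filter on low counts, and 1 to 3 when a library was left out. In inhibitory neurons it was 1, against 0 with those P21 libraries summed, 2 with at least 30 cells, 0 without Inhib_1 and Inhib_2 and 0 without Inhib_7 (both chosen after seeing the data), and 0 to 2 when a library was left out. Over clusters it was 19, against 11 with at least 30 cells, 34 with no filter and 12 to 31 with a library left out. The difference of the age effect between classes went from 1 member to 0 without Inhib_7 and to 0 without Inhib_1 and Inhib_2. In the latter fit the Grin3a difference turned from -0.63 to 0.47. For cocaine at 15 days in excitatory neurons the count of 0 became 1 (Grin2a) with no filter and 0 to 1 with a library left out, as it did for the effect between time points (1 with no filter, 0 to 1). Over clusters at 15 days 9 were called, against 0 with DESeq2, 5 with at least 30 cells, 4 with the libraries of the time point alone, 14 with no filter and 0 to 22 with a library left out. The Grin2a share in excitatory neurons moved from -5.56 to -6.06 points with clusters at equal weight and ranged from -6.44 to -3.89 with a library left out. Equal weights could not be applied in inhibitory neurons, where 0 clusters had enough cells. The thinned Grin2a share for cocaine in inhibitory neurons could not be computed.

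The other values that changed direction were as follows. Grin2a for age in inhibitory neurons (0.62) was -0.0012 without Inhib_7. Grin2c in astrocytes (-0.03) was 0.0076 with DESeq2, 0.0062 with mitochondrial and ribosomal genes kept, and -0.29 to 0.13 with a library left out. With a library left out, Grin2b in excitatory neurons ranged from -0.015 to 0.39 for age and Grin2d in inhibitory neurons from -0.27 to 0.079. For cocaine, Grin2a ranged from -0.59 to 0.10 in excitatory and -0.31 to 0.52 in inhibitory neurons at maintenance, and from -0.063 to 0.63 and -0.36 to 0.40 at 48 h. The causes were not tested. Where a group was left with 1 library, that library was taken to vary like the other groups. Inhibitory neurons numbered 19 to 371 per library, which limits the values in this class.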
